A study of Homo sapiens with 4 samples.

Results

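The genes described here are the zinc finger genes with a symbol of the form ZNF and a number that H9 human embryonic stem cells expressed, together with TRIM28 and ZNF717. They numbered 106 of the 60671 genes in the deposited table. A ZNF gene was taken when its mean over the 4 libraries was at least 5 TPM, a measure of transcript abundance that corrects for gene length and for the total of each library, and 104 genes were chosen by that measured level, ZNF398 among them. TRIM28 was included as the shared corepressor of many zinc finger proteins, and ZNF717 as a transcript that the study had followed, at any level. The measured level that chose these genes is therefore described and not tested. Polyadenylated RNA was sequenced from 4 libraries, 2 per group. Control libraries came from H9 cells, an established embryonic stem cell line, labelled as control with no edit or vector named. The study calls the cells compared in its re-expression RNA-seq mock control cells. It describes its mock controls as clones that received the empty editing vector. The labels do not say whether the control libraries came from such clones. The other group, called KO+OE here, carried an edited CFIm25 gene and a 3Flag-CFIm25 overexpression construct. The sample labels name the edit a knockout while the series title says knockdown. The study describes its edited clones as knockdowns that still made some CFIm25 protein, shortened at its N-terminus. Per the study, the re-expression was lentiviral and made in 1 edited clone. CFIm25, encoded by NUDT21, is a subunit of the complex that binds upstream of mRNA cleavage sites. Cells with the edit alone were not analysed here, so the comparison sets re-expressing cells against control cells.

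C2H2 zinc finger proteins form the largest family of human transcription factors. Each finger folds around a zinc ion held by a pair of cysteines and a pair of histidines, and neighbouring fingers are usually joined by a short conserved linker. Many members carry a KRAB domain near their start, through which they recruit TRIM28, a scaffold for the histone methyltransferase SETDB1, heterochromatin protein 1 and the NuRD deacetylase complex, and many of these silence transposable elements in embryonic stem cells. Other members have a SCAN domain, which pairs proteins with one another, or act on RNA and ribosomes instead of on promoters.

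The coding sequence of 1 finger with its following linker is shown for ZNF398 and for 3 of the 4 zinc finger genes that passed an unadjusted threshold between the groups. In the fourth, ZNF330, the finger pattern was not found. The capitals mark the codons of the cysteines and histidines that hold the zinc, and each stretch has 78 bases. They begin at coding base 1453 of ZNF398, 748 of ZNF589, 1408 of ZNF408 and 1228 of ZNF814, in GENCODE release 44 canonical transcripts.
ZNF398: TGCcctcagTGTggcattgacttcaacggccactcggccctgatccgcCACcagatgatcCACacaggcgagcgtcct
ZNF589: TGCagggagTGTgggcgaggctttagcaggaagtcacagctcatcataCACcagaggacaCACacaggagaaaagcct
ZNF408: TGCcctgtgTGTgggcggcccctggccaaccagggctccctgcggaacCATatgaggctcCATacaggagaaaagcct
ZNF814: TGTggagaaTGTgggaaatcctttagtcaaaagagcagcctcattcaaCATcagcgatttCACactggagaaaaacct
The 4 stretches share the spacing of the capitals and most of the linker, while the bases in the middle, which encode the DNA contacts, differ from gene to gene.

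The promoters of ZNF398 and ZNF717 are shown because ZNF398 was expressed and ZNF717 was near 0 in the same libraries. Each is the 150 bases before the transcript start in RefSeq (GRCh38.p14), 5′ to 3′ on the strand of the gene, with every CG in capitals. That of ZNF398 lies at chr7:149126258-149126407 on the plus strand and that of ZNF717 at chr3:75785550-75785699 on the minus strand.
ZNF398: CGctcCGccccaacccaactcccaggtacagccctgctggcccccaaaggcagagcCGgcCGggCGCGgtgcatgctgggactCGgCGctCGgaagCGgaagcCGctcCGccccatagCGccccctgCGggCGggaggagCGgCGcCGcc
ZNF717: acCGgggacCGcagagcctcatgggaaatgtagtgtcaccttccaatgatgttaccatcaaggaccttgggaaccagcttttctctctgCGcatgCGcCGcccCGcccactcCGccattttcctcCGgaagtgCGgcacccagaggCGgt
These stretches hold 18 CG pairs for ZNF398 and 10 for ZNF717. In the longer windows of 300 bases around each start that the reference holds, a median of 24 CG pairs was counted for the 89 members with a window, against 14 over all 27305 windows. Of these members, 82 were at or above that overall median. ZNF genes at lower levels were also above it, with a median of 22 CG pairs between 1 and 5 TPM and 19 under 1 TPM. For ZNF genes at 5 TPM or more it was 24.5. The letters TATAAA, searched on both strands, occurred in the windows of 2 members (2.25%), ZNF589 and ZNF335, and in 11.95% of all windows.

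The libraries were alike in the facts that bear on these genes. Each summed to between 986853 and 987078 TPM and held between 12179 and 12332 genes at 1 TPM or more. TPM values keep no read depth, so the counting error of each library is unknown. NUDT21 read 161 and 152 TPM in control and 162 and 157 TPM in KO+OE, and a gene-level value does not separate the edited transcript from the re-expressed one. All 7 pluripotency markers were expressed, with a summed level of 3188 to 3225 TPM. Of 9 lineage markers only GATA6 and TBX6 had a mean of 1 TPM or more, and their list summed to between 8.23 and 10.7 TPM, with SOX17 at 0 in every library. Of 5 fibroblast markers only COL1A1 was expressed, at 53.9 to 55.6 TPM, while DCN, LUM, POSTN and COL3A1 were at or near 0. The sources do not say whether the 2 libraries of a group came from separate cultures, so the p-values measure only the spread between these libraries, which may be technical. In bulk RNA, fewer cells expressing a gene and less of its RNA per cell cannot be told apart.

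The zinc finger family as a whole was expressed at low levels. Of 512 rows named ZNF and a number, 104 had a mean of at least 5 TPM, 129 lay between 1 and 5 TPM and 279 lay under 1 TPM, of which 22 were at 0 in all libraries. The share at or above 5 TPM was 20.3% of these rows and 12.2% of all genes in the table, many of which are not protein-coding. Of protein-coding genes outside the ZNF rows, 6758 lay at or above 5 TPM and 12882 below. The share was 22.4% of those with a transcript GC content under 50% and 47.2% of the rest, both above the 20.3% of ZNF rows. Among genes at or above 5 TPM the median was 11.1 TPM for the ZNF genes and 20.6 TPM for all genes. Of the 104 genes 49 lay between 5 and 10 TPM, 49 between 10 and 50 TPM and 6 above that. At the edge of the selection ZNF707 (5.12 TPM), ZNF839 (5.13 TPM) and ZNF316 (5.14 TPM) lay just inside, and ZNF331 (4.96 TPM), ZNF7 (4.92 TPM) and ZNF585A (4.87 TPM) just outside. Summed over all 512 rows, ZNF transcripts made up 0.231% and 0.232% of the total in control and 0.230% and 0.227% in KO+OE.

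**Figure D1:**
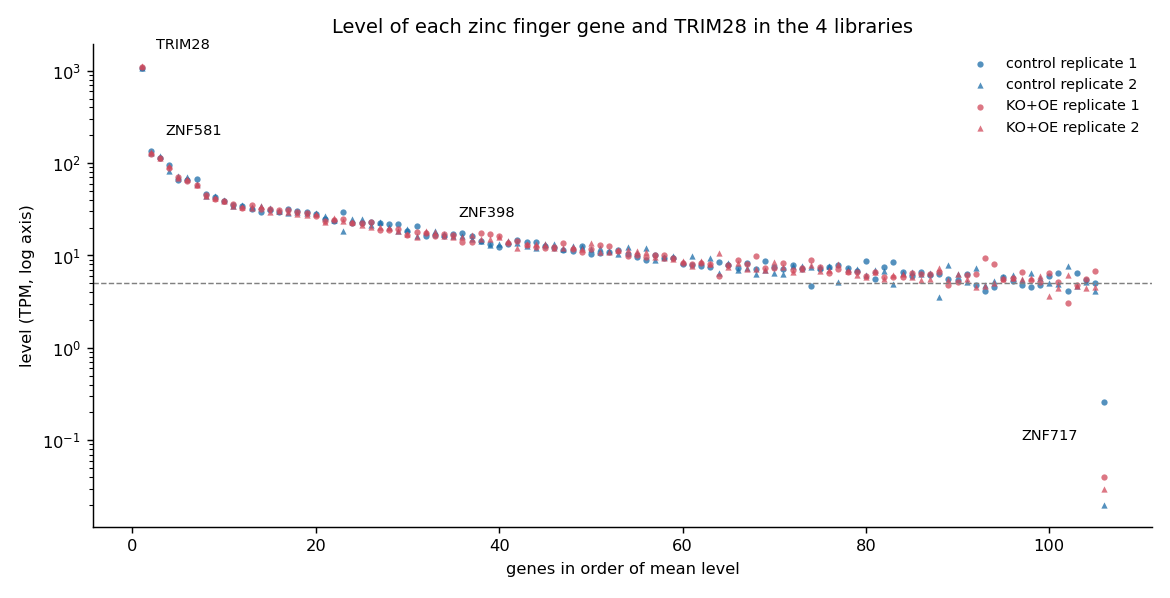
Level of each of the 106 genes (vertical axis, TPM on a log axis) in order of mean level (horizontal axis), with 1 point per library, blue for control and red for KO+OE, circles for replicate 1 and triangles for replicate 2. The dashed line marks 5 TPM; TRIM28 stands at 1057 to 1127 TPM, above every ZNF gene, and ZNF717 at 0.26 TPM or less.

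TRIM28 was expressed far above any of the zinc finger genes. It read 1057 and 1066 TPM in control and 1084 and 1127 TPM in KO+OE. The sum of the ZNF members together was 1862 to 1895 TPM per library, less than 2 times the level of TRIM28 alone. The groups did not overlap for TRIM28, but the difference was small, with a log2 fold change of 0.06 (SE 0.03, 95% interval -0.02 to 0.13) and a limma p of 0.101. It was 0.0082 with quantile normalization and ran from 0.03 to 0.09 with a library left out. Fold changes here are KO+OE against control on the log2(TPM + 1) scale, which understates changes of low values.

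The order of the most abundant zinc finger genes was the same in every library for the first 3. ZNF581 read 134 and 127 TPM in control and 125 and 133 TPM in KO+OE. ZNF219, a DNA-binding protein with 9 finger patterns in its reading frame, read 114 and 120 TPM in control and 114 and 115 TPM in KO+OE. ZNF593, a protein of ribosome biogenesis with a single finger, read 95.3 and 82.7 TPM in control and 88.3 and 93.9 TPM in KO+OE. The ranges of these 3 genes over the 4 libraries did not overlap one another. Below them ZNF511 (66.1 to 72.3 TPM), ZNF787 (64.1 to 69.9 TPM) and ZNF414 (58.2 to 66.6 TPM) overlapped in turn, so their order is not fixed by these libraries. ZNF672 followed at 43.6 to 46.8 TPM, apart from all of them. None of these 7 carried a KRAB pattern.

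ZNF398, a KRAB protein known to regulate pluripotency and epithelial character in human stem cells, was held at nearly one level. It read 16.4 and 17.2 TPM in control and 17.1 and 16.4 TPM in KO+OE. The log2 fold change was -0.01 (SE 0.07, 95% interval -0.19 to 0.18), an interval of 0.876- to 1.13-fold on this scale. ZNF717 had the lowest level of the 106 genes. It read 0.26 and 0.02 TPM in control and 0.04 and 0.03 TPM in KO+OE, and with a mean of 0.0875 TPM it did not pass the filter of 1 TPM that a test required. One control library held the highest of its 4 values and the other held the lowest, so the groups overlapped.

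The KRAB pattern, a spacing of conserved residues searched in the translated reading frames, was found in 34 of the 103 ZNF genes at 5 TPM or more whose frame could be read (33.0%), in ZNF717, in 66.1% of ZNF genes between 1 and 5 TPM and in 64.7% of those under 1 TPM. It was found in 0.184% of 18988 other protein-coding genes with a readable frame. That count left out genes with ZFP, ZSCAN, ZKSCAN, ZIM or ZIK symbols as well as the ZNF genes. How often the search missed a KRAB domain was not measured, so genes without the pattern may still have one. The 34 tested members with the pattern had a median of 8.36 TPM. The 70 tested members in which it was not found, TRIM28 included, had a median of 11.9 TPM. ZNF282 was the highest of the members with the pattern, at 39.1 and 40.01 TPM in control and 39.3 and 39.1 TPM in KO+OE. ZNF74, at 27.6 to 29.6 TPM, and ZNF738, at 23.9 to 25.6 TPM, came next. The finger pattern was found a median of 8 times in ZNF genes at 5 TPM or more, 10 times in those between 1 and 5 TPM and 12 times in those under 1 TPM. It was absent from the frames of ZNF185, a LIM domain protein, and ZNF330, a nucleolar protein.

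The GC content of ZNF transcripts differed between these classes of level. The median GC content was 55.5% for ZNF genes at 5 TPM or more, 44.3% for those between 1 and 5 TPM and 40.9% for those under 1 TPM. Of ZNF genes with the KRAB pattern under 50% GC, 19 of 260 reached 5 TPM (7.31%), and of those at or above 50% GC 15 of 30 did. Among ZNF genes without the pattern the same shares were 13 of 120 (10.8%) and 56 of 86 (65.1%). Other protein-coding genes moved the same way over a narrower range, from 22.4% of 10129 genes to 47.2% of 9511. The median GC content of the other coding genes was 54.2% at 5 TPM or more and 46.6% below it. These shares describe the genes the level selected and carry no test. The part that GC content plays in the TPM values of these libraries was not tested.

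**Figure D2:**
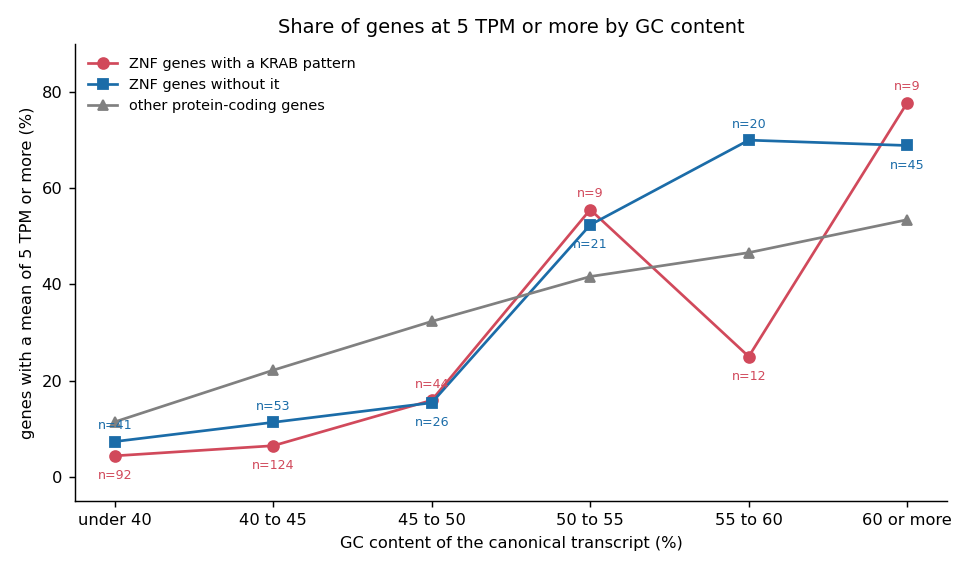
Share of genes with a mean of 5 TPM or more (vertical axis, %) in 6 classes of transcript GC content (horizontal axis, %), for ZNF genes with a KRAB pattern (red circles), ZNF genes without it (blue squares) and other protein-coding genes (grey triangles). In the lowest class the shares were 4.35%, 7.32% and 11.4%, and in the highest 77.8%, 68.9% and 53.5%; the 3 highest KRAB classes hold 9, 12 and 9 genes.

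The KRAB corepressor machinery was present at unequal levels. Of 20 partners analysed, 16 had a mean of at least 1 TPM. SUMO2 read 119 and 108 TPM in control and 113 and 103 TPM in KO+OE. CHD4, the remodelling ATPase of NuRD, stood at 69.4 to 74.7 TPM, HDAC1 at 47.1 to 52.2 TPM, the methyltransferase DNMT1 at 35.9 to 39.2 TPM and CBX1, a heterochromatin protein 1 gene, at 20.6 to 23.2 TPM. SETDB1 read 14.4 and 18.3 TPM in control and 16.4 and 19.2 TPM in KO+OE. Of the HUSH subunits PPHLN1 had a mean of 7.91 TPM, with the HUSH effector MORC2 at 18.7 TPM, while TASOR (0.793 TPM) and MPHOSPH8 (0.583 TPM) had means below the filter. The TRIM28 relative TRIM33 (0.665 TPM) and the remodeller SMARCAD1 (0.663 TPM) also lay below it. No partner had an unadjusted limma p under 0.05, and the smallest was that of CBX1, with a log2 fold change of 0.11 (95% interval -0.06 to 0.28) and p of 0.148. None had an adjusted p under 0.05. The median log2 fold change of the 16 partners was 0.04, with 10 above 0 and 6 below. Over all genes tested it was -0.01, with 5609 above 0 and 6710 below.

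Between the groups, no zinc finger gene passed the adjusted threshold. Of the 105 members tested, 0 had an adjusted p under 0.05 by limma with Benjamini-Hochberg adjustment, against 0.00812% of the 12319 genes tested, which is 1 gene. At an unadjusted p under 0.05, 4 members passed (3.81%) against 5.33% of all genes. Of these 2 were higher in KO+OE, against 2.26% of all genes, and 2 were lower, against 3.06%. With median ratio rescaling of the libraries the split was 2 higher and 1 lower, against 324 and 321 of all 12306 genes tested. With quantile normalization it was 3 and 2, against 332 and 317 of 12319 genes. Which members passed changed when 1 library was left out. The groups did not overlap for 12 members that were higher (11.4%) and 21 of 105 that were lower, against 14.5% and 19.6% of all genes.

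The unadjusted threshold was passed upward by ZNF589 and ZNF408. ZNF589, a KRAB protein first described in blood stem cells, read 12.3 and 13.3 TPM in control and 16.2 and 15.7 TPM in KO+OE. The log2 fold change was 0.30 (SE 0.08, 95% interval 0.10 to 0.50), with a limma p of 0.0124 and an adjusted p of 0.928. ZNF408, a finger protein in which variants affect the vessels of the retina, read 13.2 and 13.0 TPM in control and 17.0 and 15.2 TPM in KO+OE. The log2 fold change was 0.28 (SE 0.09, 95% interval 0.06 to 0.50), with a limma p of 0.0226 and an adjusted p of 0.928. For both genes the KO+OE libraries lay above both control libraries, as they did for 14.5% of all genes tested. Genes picked for a small p are likely to be apart in this way, so it adds no support.

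Downward, the threshold was passed by ZNF814 and ZNF330. ZNF814, a KRAB protein with 23 finger patterns, read 22.5 and 23.1 TPM in control and 18.97 and 20.3 TPM in KO+OE. The log2 fold change was -0.21 (SE 0.07, 95% interval -0.38 to -0.03), with a limma p of 0.0298. ZNF330 read 7.54 and 6.77 TPM in control and 5.89 and 5.50 TPM in KO+OE. The log2 fold change was -0.28 (SE 0.11), with a limma p of 0.0492 at the edge of the threshold, and the adjusted p was 0.931. With 1 library left out these calls moved: all 4 genes lost the unadjusted threshold without control replicate 1 and without KO+OE replicate 1, only ZNF589 of the 4 kept it without control replicate 2, and all but ZNF330 kept it without KO+OE replicate 2. With all libraries ZNF330 lost it under the replicate block, a pseudocount of 5, a filter at 5 TPM and median ratio rescaling, and ZNF814 lost it without the mean-dependent prior.

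**Figure D3:**
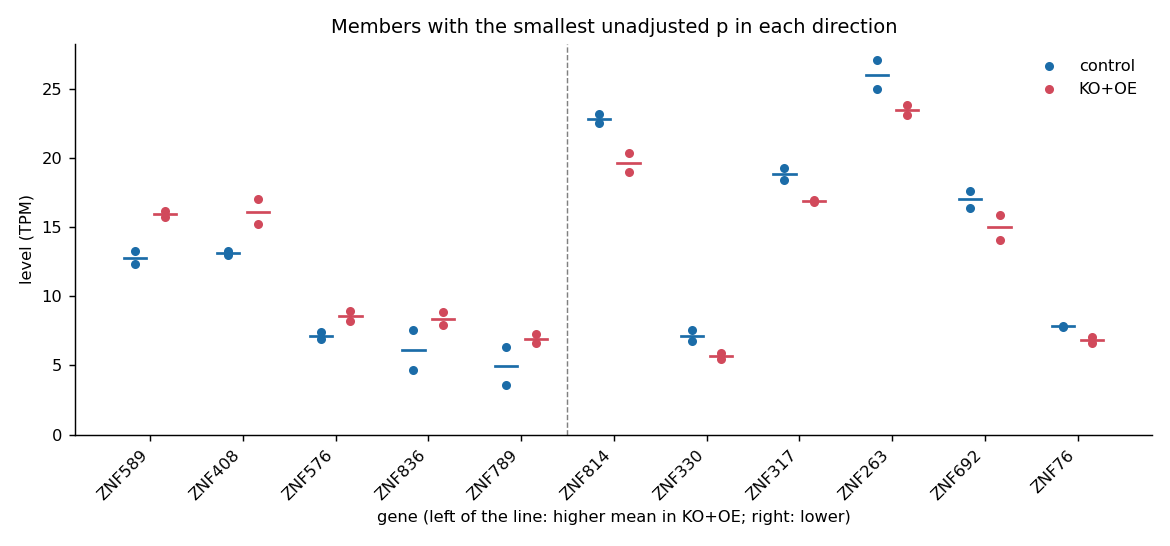
Level in each library (vertical axis, TPM) of the ZNF genes with the smallest unadjusted p in each direction, control in blue and KO+OE in red, points for libraries and bars for the mean of 2. ZNF589 and ZNF408 on the left lie at 12.3 to 13.3 TPM in control and 15.2 to 17.0 TPM in KO+OE; the genes right of the dashed line have a lower mean in KO+OE.

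The genes next in order did not pass. ZNF576 alone of the ZNF genes among them passed with all libraries under another setting, with a p of 0.0439 under quantile normalization and 0.0468 without the mean-dependent prior. Upward these were ZNF576 with a log2 fold change of 0.23 and a limma p of 0.0654, TRIM28, ZNF836 at 0.42 with a p of 0.102 and ZNF789 at 0.45 with a p of 0.119. In ZNF836 one control library read 4.70 TPM and the other 7.55 TPM, and in ZNF789 they read 6.34 and 3.59 TPM, so that the size of both values rests on a single low control library. Downward these were ZNF317 at -0.15, ZNF263 at -0.14, ZNF692 at -0.17 and ZNF76, a relative of the snRNA gene activator ZNF143, at -0.18, with limma p-values from 0.0803 to 0.122. In each of these 4 both KO+OE libraries lay below both control libraries, as they did for 19.6% of all genes tested. The choice by small p makes this likely, so it adds no support.

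Over the family the differences were small in both directions. The median log2 fold change of the 105 members was -0.03 and that of all genes tested was -0.01. The values ran from -0.32 in ZNF512 to 0.50 in ZNF664. Of the members 43 lay above 0 and 62 below, against 5609 and 6710 of all genes tested. For 102 members (97.1%) the 95% interval on the log2(TPM + 1) scale lay within a 2-fold difference in either direction. For 89 (84.8%) it lay within a 1.5-fold difference. Among the 7393 genes tested at 5 TPM or more these shares were 97.8% and 90.6%. The members outside the 2-fold limit were ZNF664, ZNF286A and ZNF789. For the other members a p that missed the threshold does not show that the groups were equal. A difference above 2-fold on the log2(TPM + 1) scale lies outside their interval, a limit that is looser in TPM for low values. Members with the KRAB pattern had a median of -0.02 and members without the pattern -0.03. The 33 members on chromosome 19, where many zinc finger genes lie in clusters, had a median of -0.02, and those on other chromosomes -0.03.

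**Figure D4:**
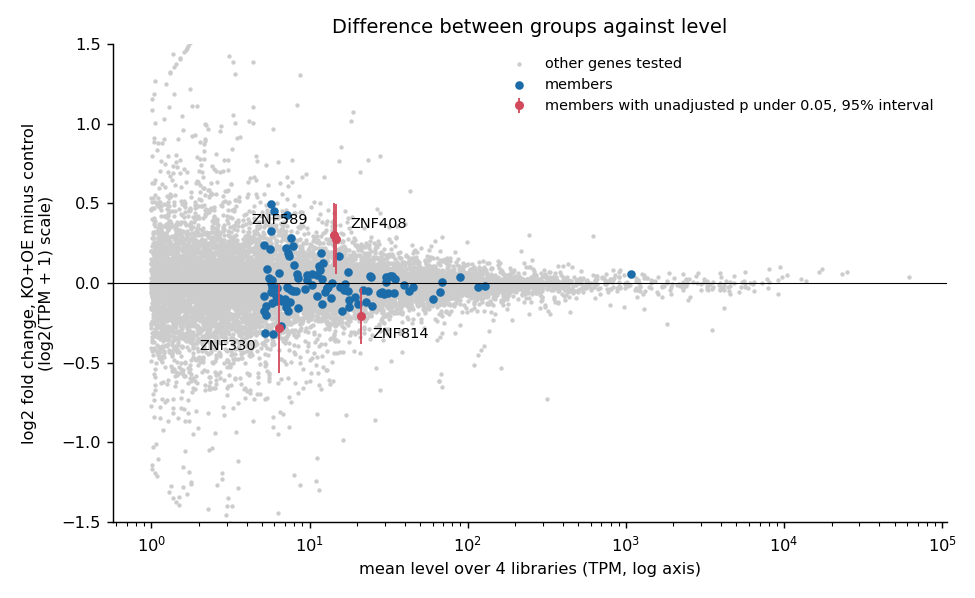
Log2 fold change of KO+OE against control on the log2(TPM + 1) scale (vertical axis) against mean level (horizontal axis, TPM on a log axis) for all genes tested (grey) and the members (blue), with the 4 members under an unadjusted p of 0.05 in red with 95% intervals. The members lie between -0.32 and 0.50 within the cloud of other genes, and 77 genes lie outside the plotted range of 1.5 in either direction.

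Of 20 SCAN proteins listed, 9 were members, between 5.39 and 31.3 TPM. ZNF496 was highest, at 31.3 and 32.7 TPM in control and 31.5 and 29.7 TPM in KO+OE. ZNF444 read 28.3 to 30.7 TPM and ZNF263 23.1 to 27.1 TPM. Their median log2 fold change was -0.07, with 2 above 0 and 7 below, against 5609 and 6710 of all genes tested. Of the 9, 0 had an unadjusted limma p under 0.05 in either direction. ZNF274, which recruits SETDB1 to the ends of other zinc finger genes, read 4.75 and 5.65 TPM in control and 5.19 and 5.97 TPM in KO+OE.

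Of 10 genes listed for roles in RNA, ribosomes and translation, 7 were members, and ZNF638 (4.195 TPM), ZNF277 (1.07 TPM) and ZNF326 (0.545 TPM) lay below the selection. After ZNF593 the members were ZNF622, a factor of the large ribosomal subunit, at 34.1 to 36.1 TPM, ZNF207, a spindle assembly protein that binds microtubules and BUB3, at 31.9 to 35.4 TPM, and ZNF598, the ubiquitin ligase of collided ribosomes, at 26.4 to 28.9 TPM. ZNF346, a double-stranded RNA binder, read 10.7 to 13.1 TPM and ZNF385A 10.8 to 12.8 TPM. Only ZNF330 of this list passed the unadjusted threshold, downward. The median log2 fold change was 0.04, with 5 above 0 and 2 below, against 5609 and 6710 of all genes tested.

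Of 25 promoter and chromatin regulators listed, 11 were members. ZNF687, ZNF592 and ZNF532, which join in one chromatin complex, had means of 30.3, 7.32 and 11.1 TPM. ZNF410, an activator of the CHD4 gene, read 10.01 and 9.0 TPM in control and 10.2 and 9.58 TPM in KO+OE, while CHD4 read 71.5 and 70.7 TPM in control and 69.4 and 74.7 TPM in KO+OE. ZNF384 read 22.7 and 24.7 TPM in control and 22.3 and 21.2 TPM in KO+OE, and ZNF423, a partner of BMP-activated SMAD proteins, 20.9 and 16.1 TPM in control and 18.2 and 15.9 TPM in KO+OE. The 11 log2 fold changes lay between -0.12 and 0.05 with a median of -0.04, and 0 had an unadjusted limma p under 0.05.

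The members at 20 TPM or more had the closest replicates. The median absolute difference between replicates on the log2(TPM + 1) scale was 0.17 in control and 0.11 in KO+OE for the 49 members between 5 and 10 TPM, 0.11 and 0.13 for the 28 between 10 and 20 TPM, and 0.08 and 0.06 for the 28 at 20 TPM or more. For all genes it was 0.13 in both groups at 5 to 10 TPM, 0.10 in both at 10 to 20 TPM and 0.06 in both at 20 TPM or more. The widest gap belonged to ZNF664, which read 4.10 and 4.80 TPM in control and 9.42 and 4.65 TPM in KO+OE. The log2 fold change of 0.50 of this gene, the highest of the members, thus rests on 1 library. ZNF286A read 4.14 and 7.64 TPM in control and 3.03 and 6.11 TPM in KO+OE, with replicate 1 below replicate 2 in both groups. ZNF565 (6.07 and 10.7 TPM in KO+OE), ZNF250 (6.49 and 3.65 TPM in KO+OE) and ZNF517 (8.52 and 4.92 TPM in control) came next.

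**Figure D5:**
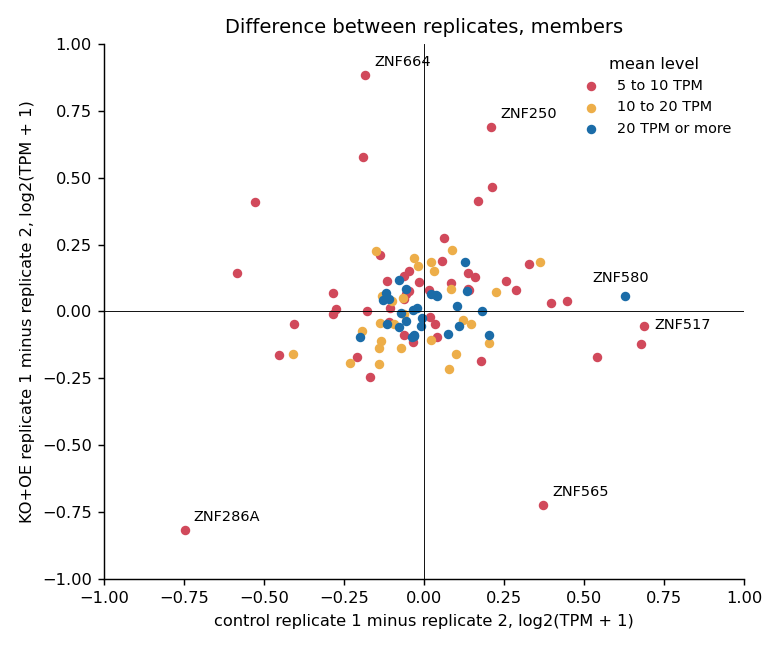
Replicate 1 minus replicate 2 on the log2(TPM + 1) scale in control (horizontal axis) and in KO+OE (vertical axis) for each of the 105 tested members, coloured by mean level. ZNF664, ZNF250, ZNF565 and ZNF286A lie more than 0.68 from 0 in KO+OE; members at 20 TPM or more crowd around 0 with ZNF580 as the exception in control.

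Some members share sequence that read counting could split. In stretches of 100 bases compared with all GENCODE transcripts, 95 of the 106 members shared none with a gene elsewhere in the genome. ZNF286A shared the most, 38.6% of its stretches, with ZNF286B. The following 100 bases, from coding base 338 of ZNF286A, are shown as 1 such stretch that both genes hold.
ZNF286A: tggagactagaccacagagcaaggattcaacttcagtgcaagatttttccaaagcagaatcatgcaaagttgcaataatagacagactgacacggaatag
After it came ZNF814 with 4.33%, most of it (3.60%) shared with ZNF552, ZNF532 with 2.96%, ZNF592 with 2.67% and ZNF746, a repressor of the mitochondrial regulator PPARGC1A, with 1.41%. The values of ZNF286A are uncertain for this reason, and the part that shared sequence plays in its replicate gap was not tested.

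More members share sequence with a gene annotated over the same locus. For 25 members some stretches were shared in this way, and for 11 members more than 10% were. ZNF410 shared 80.5% of its stretches with an overlapping gene model, which had a mean of 1.66 TPM in the table. ZNF511 shared 41.4% with the readthrough gene ZNF511-PRAP1, which had a mean of 3.39 TPM. ZNF263 shared 48.3% and ZNF362 37.4% with models that have no row in the deposited table under their identifiers. ZNF544, with a mean of 20.3 TPM, shared 10.1% with a model at 58.3 TPM. Where the overlapping model has a row of its own, the level of the member may depend on how shared reads were assigned. How they were assigned is not known here.

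Several members lie near one another in the genome, with positions given here from RefSeq on GRCh38.p14. On chromosome 7, 5 members lie between 149126408 and 149497809, a span of 371 kb that also holds other genes. ZNF398 comes first, followed by ZNF282, ZNF212, ZNF777 and ZNF746 with means of 39.4, 12.5, 13.95 and 7.69 TPM. None of these 5 had an unadjusted limma p under 0.05. ZNF580 lies within the span of ZNF581 on chromosome 19, on the same strand, and the pair had means of 24.0 and 130 TPM. ZNF580 read 29.2 and 18.6 TPM in control and 24.6 and 23.6 TPM in KO+OE, so that its control replicates lay farther apart than those of ZNF581 and its KO+OE replicates closer together. ZNF668 and ZNF646 overlap at their starts on opposite strands of chromosome 16, where 13 members lie, and had means of 11.9 and 11.1 TPM. ZNF672 and ZNF692 lie 490 bases apart near the end of chromosome 1 and point toward each other, at 43.6 to 46.8 TPM and 14.1 to 17.6 TPM.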

How the data were processed

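Polyadenylated RNA of 2 control and 2 KO+OE libraries of H9 cells was analysed, with groups and replicate numbers from the sample titles. The authors deposited a table with 1 column per library and no named unit. Its values were read as TPM because the deposited columns hold decimals and sum to nearly the same total. The submitters' processing notes name HISAT2, featureCounts, Subread, DESeq2 and hg38, with no versions or roles. Counts were not analysed here, depth is unknown, and 0 columns of other samples were found.

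The 12319 genes averaging 1 TPM or more were compared on log2(TPM + 1) with limma 3.58.1 (mean-dependent prior, group as the only term, two-sided) in R 4.3.3, with Benjamini-Hochberg adjustment over all genes tested. The fit was checked on simulated data with 200 changed genes, each changed 2-fold on the log2(TPM + 1) scale. That check does not show whether differences as small as those of the members would be found. Intervals are limma's at 95%. The members and gene lists were chosen with earlier results of these data known. A gene of the corepressor list is not reported here. Its removal followed the first analysis, had nothing to do with its values, and applies to each summary of that list.

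Genes named were TRIM28, ZNF398 and ZNF717, the 8 members with the highest mean, the 6 with the smallest unadjusted p in each direction, the 5 with the largest replicate gap, the 3 on either side of the 5 TPM edge, members of the functional lists, the 5 highest of the corepressor partners analysed and the 5 members sharing most sequence elsewhere. Other members, such as ZNF282, ZNF74, ZNF738, ZNF185, ZNF335, ZNF362, ZNF544, ZNF580, ZNF668, ZNF646, ZNF212 and ZNF777, and the partners SETDB1, PPHLN1, MORC2, TASOR, MPHOSPH8, TRIM33 and SMARCAD1, were chosen for naming once their values were known. GC content, reading frames and shared stretches came from GENCODE 44 canonical transcripts on GRCh37, and positions and promoters from RefSeq on GRCh38.p14 by symbol, with all 106 members positioned. The KRAB pattern was adjusted to find known KRAB genes and is an estimate; the frame of ZNF274 could not be read. Tables were made with Python 3.11.15 and pandas 2.3.3. The alternatives were no filter or one at 5 TPM, pseudocounts of 0.1 and 5, quantile normalization, median ratio rescaling, a block on the replicate number, limma's prior without dependence on the mean, members at 10 TPM or more, and leaving out each library, where the lone library is assumed to vary like the other group.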

Additional observations from a re-analysis of the deposited data

How the results depend on the processing

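No member and no corepressor partner passed an adjusted p of 0.05 under any of the 9 alternatives with all libraries or the 4 that left 1 out. The number of members past an unadjusted p of 0.05 was 3 to 5 with all libraries and 1 to 6 with 1 left out, lowest without KO+OE replicate 1. Of these the number lower in KO+OE was 1 in place of 2 with a pseudocount of 5, a filter at a mean of 5 TPM, median ratio rescaling, no mean-dependent prior, the replicate block and members at 10 TPM or more, and 0 to 4 with a library left out; the number higher was then 1 to 5. The median log2 fold change of the members moved from -0.0276 to -0.0145 with quantile normalization and ran from -0.0382 to -0.0126 with a library left out. The partners' median ran from 0.00343 to 0.036 with a library left out, lowest without KO+OE replicate 1. The replicate block dropped ZNF330, with a limma p of 0.0619, which left 3 members past the unadjusted threshold, and changed no other call of these genes; same-numbered libraries deviated with a correlation of -0.05 over all genes and 0.08 over members, so the numbers were not taken as pairs. Among 25 named genes, the sign turned in 3 of 200 fits with all libraries: ZNF398 reached 0.00661 with median ratio rescaling and 0.00437 with quantile normalization, and ZNF581 0.00273 with the latter. With a library left out it turned in 16 of 100 fits, in 10 genes: ZNF398 ran from -0.0399 to 0.0281, ZNF581 from -0.0618 to 0.0237, ZNF219 from -0.0647 to 0.00945, ZNF593 from -0.0654 to 0.14, ZNF511 from -0.0589 to 0.0694, ZNF672 from -0.0757 to 0.0267, ZNF517 from -0.44 to 0.25, ZNF565 from -0.25 to 0.47, ZNF250 from -0.49 to 0.20 and ZNF286A from -0.73 to 0.0935. Depth is unknown; the median 95% interval reached 0.33 to either side for members between 5 and 10 TPM and 0.16 at 20 TPM or more. The cause of these shifts was not tested.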
